A study of Mus musculus with 80 samples.

Results

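The adrenal glands of 10 female mice were compared at a young adult and an old age, 5 mice of 169 to 194 days (called 6 months here) and 5 mice of 704 to 733 days (24 months). They were selected by sex and age from the sample titles and are 10 of 40 mice, or 20 of 80 arrays, since each mouse was measured on a pair of array membranes, A and B. All 10 were C57BL/6 females given regular feed ad libitum until they were killed, with no other treatment or genetic change named in the labels. RNA of whole adrenals was copied into radioactively labelled cDNA and hybridised. The 5 females of 476 to 499 days (16 months) were used as an intermediate age. The 10 males of 6 and 24 months served to ask whether the female difference was matched in the other sex. The main fit also held the 16-month males and juveniles of both sexes, younger than the 6-month mice. All 40 mice thus set the shared spread behind each SE and p of the female difference. The series' stated design was a comparison by age and sex.

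The adrenal gland is a steroid-producing cortex around a medulla of chromaffin cells, which make catecholamines. Pituitary ACTH acts through its receptor Mc2r, cyclic AMP and the factor Nr5a1 on cortical cells, which take up cholesterol, pass it into mitochondria through Star and convert it with Cyp11a1 and Hsd3b1. Cortical cells are renewed from the capsule and outer zone under Wnt and Hedgehog signals, and the mouse also has an inner X-zone that lasts longer in females than in males. Aging of this gland in other settings has been described through steroid output, macrophages, lipid and fibrosis, so genes of these groups were followed by name.

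Each deposited value was a z-score within its array, so 0 is the mean of all features on the membrane and 1 is 1 SD of them. A difference of 0.46 z units is therefore a shift within the array's own spread and cannot be turned into a fold change. Each membrane held 8448 features, 16896 in all. Of these, 9663 carried 1 gene symbol, covering 7151 genes, of which 1858 had more than 1 feature. The remaining 436 with several symbols and 6797 with none were tested but not named. No filter on low values was applied. The features of Star, Cyp11a1 and Hsd3b1 stood above the array mean in 10 of 10 females, between 0.69 and 1.99, in the glands labelled adrenal. Of the medulla markers, Th was measured, at -0.31 ± 0.137 (SD, n = 5) at 6 months and -0.29 ± 0.0719 at 24 months. Cyp11b1, Cyp21a1, Dbh, Chga and Chgb had no named feature. In a whole gland, fewer cells of a type and less RNA per cell cannot be told apart.

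1 array needs stating before any result. The membrane A array of the 733-day female and that of a 40-day male held equal values at 66% of the features and correlated at r = 0.999 across features, while the next most similar pair of membrane A arrays shared 3.36%. The membrane B arrays of the same 2 mice shared 2.28%. Which of the 2 mice the shared array belongs to was not settled by the labels. Several membrane A values and list medians are therefore also given without both arrays, though not every value that these arrays move. The similarity of an array to the rest (its correlation with their mean) was 0.981 ± 0.00427 (SD, n = 5) at 6 months and 0.973 ± 0.0082 at 24 months on membrane A, and 0.983 ± 0.00247 against 0.976 ± 0.00887 on membrane B (two-sided exact permutation p = 0.0952 on each, smallest possible 0.00794). The 24-month arrays therefore lay lower and spread more, without passing an exact test, and with similarity as a covariate 0 features passed the comparison of the ages in limma (401 higher and 240 lower at an unadjusted p under 0.05, beside 360 and 400 without it).

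Across all features, the comparison of 24-month with 6-month females called no single feature on this platform. None of the 16896 features passed an adjusted p of 0.05 in limma's moderated test with Benjamini-Hochberg adjustment (0% called), and the smallest adjusted p was 0.987. At an unadjusted p under 0.05, 760 features (4.5%) stood apart, 360 higher at 24 months (2.13%) and 400 lower (2.37%). Leaving out single mice moved these counts both ways. They were 259 and 185 without the 733-day mouse and 292 and 180 without the 186-day mouse. Without the 716-day mouse they were 405 and 636, and without the 712-day mouse 406 and 619. Fitting only the 10 females gave 586 and 433, with 0 past the threshold (smallest adjusted p = 0.145 in limma). All values of one group lay beyond all values of the other at 197 features (1.17%), with 149 of them higher at 24 months (0.882%) and 48 lower (0.284%). By size, 5% of features lay below -0.20 and 5% above 0.23 z units on membrane A, and -0.17 and 0.18 on membrane B. The size exceeded 0.5 z units at 98 features (0.58%) and 1 z unit at 6. The median SE of a difference was 0.107 on membrane A and 0.0978 on B, from the spread of all 40 mice. Differences well beyond that size went uncalled too, since Lad1 at 0.46 z units did not pass. The lack of calls therefore does not show that differences of that size are absent at single features.

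The differences followed the numbering of the features. The rank correlation of the female difference between features 22 numbers apart reached 0.546 on membrane A and 0.451 on B. It was 0.467 and 0.285 for consecutive features, 0.273 and 0.154 at a distance of 11, and 0.0966 and 0.0808 at a distance of 100. The mean level of features over all arrays also followed the distance of 22, with correlations of 0.356 and 0.357, against 0.0191 and 0.0563 for consecutive features. The numbering behaved as rows of 22 in 16 blocks of 24 rows: deviations of neighbouring rows correlated at a median of 0.33 on membrane A and 0.338 on membrane B within blocks, and at 0.0167 and -0.000204 across the 15 block edges. These are descriptions across features that share arrays, and the labels do not say what the numbering stands for on the membrane. A feature's difference tracked the median of its up to 24 neighbours within 2 rows and columns (Spearman 0.656 on A, 0.519 on B). Each leading gene below is therefore given both as deposited and after its neighbours' median was subtracted in every array, a step chosen after seeing the data. After subtraction, 0 of 16896 features passed in limma (smallest adjusted p = 0.641). At an unadjusted p under 0.05, 583 did (3.45%): 408 features stood higher (2.41%) and 175 lower (1.04%). The median SE was then 0.0899 and 0.0822.

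**Figure D1:**
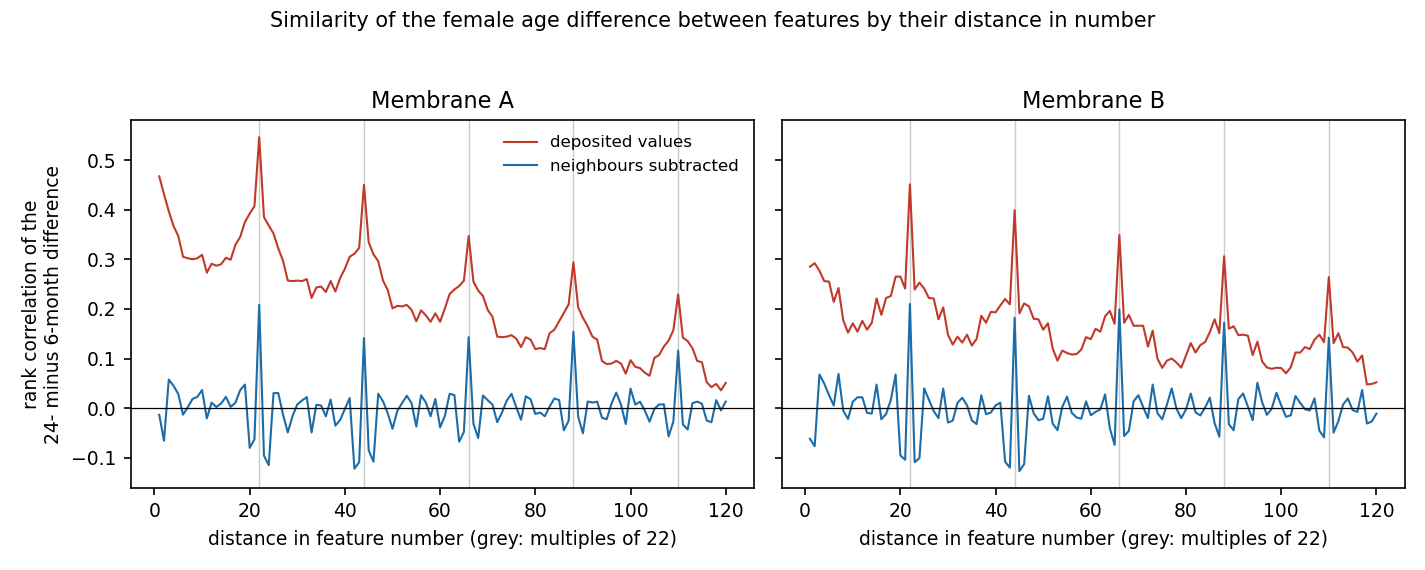
Rank correlation of the 24- minus 6-month female difference (vertical axis) between features a given distance apart in feature number (horizontal axis), for membranes A and B. With deposited values (red) it peaks at every multiple of 22, at 0.546 and 0.451 for a distance of 22; after neighbour subtraction (blue) these peaks stand at 0.208 and 0.21.

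Among genes of steroid production, no member passed the test. Of 9 measured members of the steroid synthesis list, 5 were higher at 24 months and 3 lower, with a median difference of 0.004 z units (0.054 without the near-identical arrays), against 50.4% higher and a median of 0.002 over all 7151 named genes. Values of single mice are given below in the order 186, 193, 194, 169 and 180 days for the 6-month group and 716, 714, 712, 733 and 704 days for the 24-month group. Star, which moves cholesterol to the inner mitochondrial membrane, stood at 1.63, 1.85, 1.23, 1.78 and 0.92 at 6 months and at 1.63, 1.45, 1.26, 1.53 and 1.05 at 24 months. The ranges overlap over nearly their whole length, and the difference was -0.098 (95% interval -0.48 to 0.28). Cyp11a1, the side-chain cleavage enzyme that starts steroid synthesis, stood at 1.08, 1.37, 1.06, 1.09 and 1.07 at 6 months and at 1.30, 1.30, 1.21, 1.20 and 1.21 at 24 months. The 193-day mouse lay above all the old mice, the other young mice below them, and the difference was 0.11 (SE 0.0676, adjusted p = 0.987 in limma). Its neighbours' median differed by 0.12, and after subtraction 0.0064 remained. The 2 features of Hsd3b1, which converts pregnenolone to progesterone, differed by 0.082 (SE 0.0968) and -0.004 (SE 0.156). Because the Hsd3b genes are close copies, which of them each feature captured is uncertain. Cyp17a1, a 17-hydroxylase that adult mouse adrenals barely use, differed by -0.030 (SE 0.123).

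In the ACTH pathway no gene passed, and the 2 features of the receptor differed from each other. Mc2r, the ACTH receptor, stood at 0.25, 0.22, 0.19, 0.21 and 0.01 at 6 months and at 0.31, 0.40, 0.40, 0.49 and 0.22 at 24 months on feature 12570. Only the 704-day mouse fell within the young range, and the difference was 0.19 (SE 0.103, adjusted p = 0.987 in limma), or 0.28 (SE 0.096) with neighbours subtracted. The second Mc2r feature differed by -0.028 (SE 0.114). Of 17 members of the ACTH and cyclic AMP list, 9 were higher and 8 lower, with a median of 0.012 (-0.015 after subtraction). Crtc2, a coactivator of CREB, differed by -0.33 (SE 0.149) with overlapping groups, and Creb1, the cyclic AMP response factor, by -0.17 (SE 0.0841). Nr5a1, the master regulator of steroidogenic genes, differed by 0.054 (95% interval -0.14 to 0.25).

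Of 20 measured genes of cholesterol supply, 11 were higher and 9 lower, with a median of 0.026, and none passed. At an unadjusted p under 0.05, 3 of the 20 were higher (2.13% of all features). Scarb1, the HDL receptor that brings cholesteryl ester into mouse adrenal cells, stood at -0.17, -0.17, -0.72, -0.28 and -0.09 at 6 months and at -0.51, 0.05, 0.20, 0.35 and 0.09 at 24 months. 4 old mice lay above all young mice and the 716-day mouse lay among them, so the difference of 0.32 (SE 0.158, adjusted p = 0.987 in limma) rests on a wide spread. It was 0.38 (SE 0.144) with neighbours subtracted and 0.24 (SE 0.154) without the near-identical arrays. Scap, the sterol sensor that escorts SREBP, ranged from -0.44 to -0.25 at 6 months and from -0.17 to 0.07 at 24 months, a difference of 0.32 (SE 0.110) with no overlap. Srebf1, which encodes an SREBP, differed by 0.22 (SE 0.0805). The matching male differences were -0.042 for Scarb1, -0.016 for Scap and -0.092 for Srebf1. Of 18 lipid droplet and fatty acid genes, 10 were higher and 8 lower (median 0.015). Acadm, which starts medium-chain fatty acid oxidation, ranged from -1.34 to -1.01 at 6 months and from -0.84 to -0.59 at 24 months, a difference of 0.38 (SE 0.176) that did not pass.

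The X-zone list had 4 measured members, of which 1 was higher and 3 lower at 24 months, with a median of -0.069 (-0.023 without the near-identical arrays). Akr1c19 stood at -0.15, -0.22, -0.81, -0.01 and -0.28 at 6 months and at -0.64, -0.75, -0.26, -0.33 and -0.31 at 24 months. The 194-day mouse lay lowest of all 10, and the difference of -0.16 (SE 0.111) did not pass in limma (adjusted p = 0.987). Pik3c2g differed by -0.094 (SE 0.0878) and the 2 features of Akr1c14 by -0.044 (SE 0.0705) and -0.024 (SE 0.102). The Akr1c genes resemble one another, so the assignment of these features is uncertain. In males the list's median was -0.12. Of 9 hormone receptor genes 4 were higher and 4 lower (median 0). Thra, a thyroid hormone receptor, was the member furthest from 0, at 0.24 (SE 0.0959) with no overlap and 0.11 after neighbour subtraction. The 2 features of the estrogen receptor gene Esr1 differed by -0.086 (SE 0.113) and -0.012 (SE 0.0684).

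**Figure D2:**
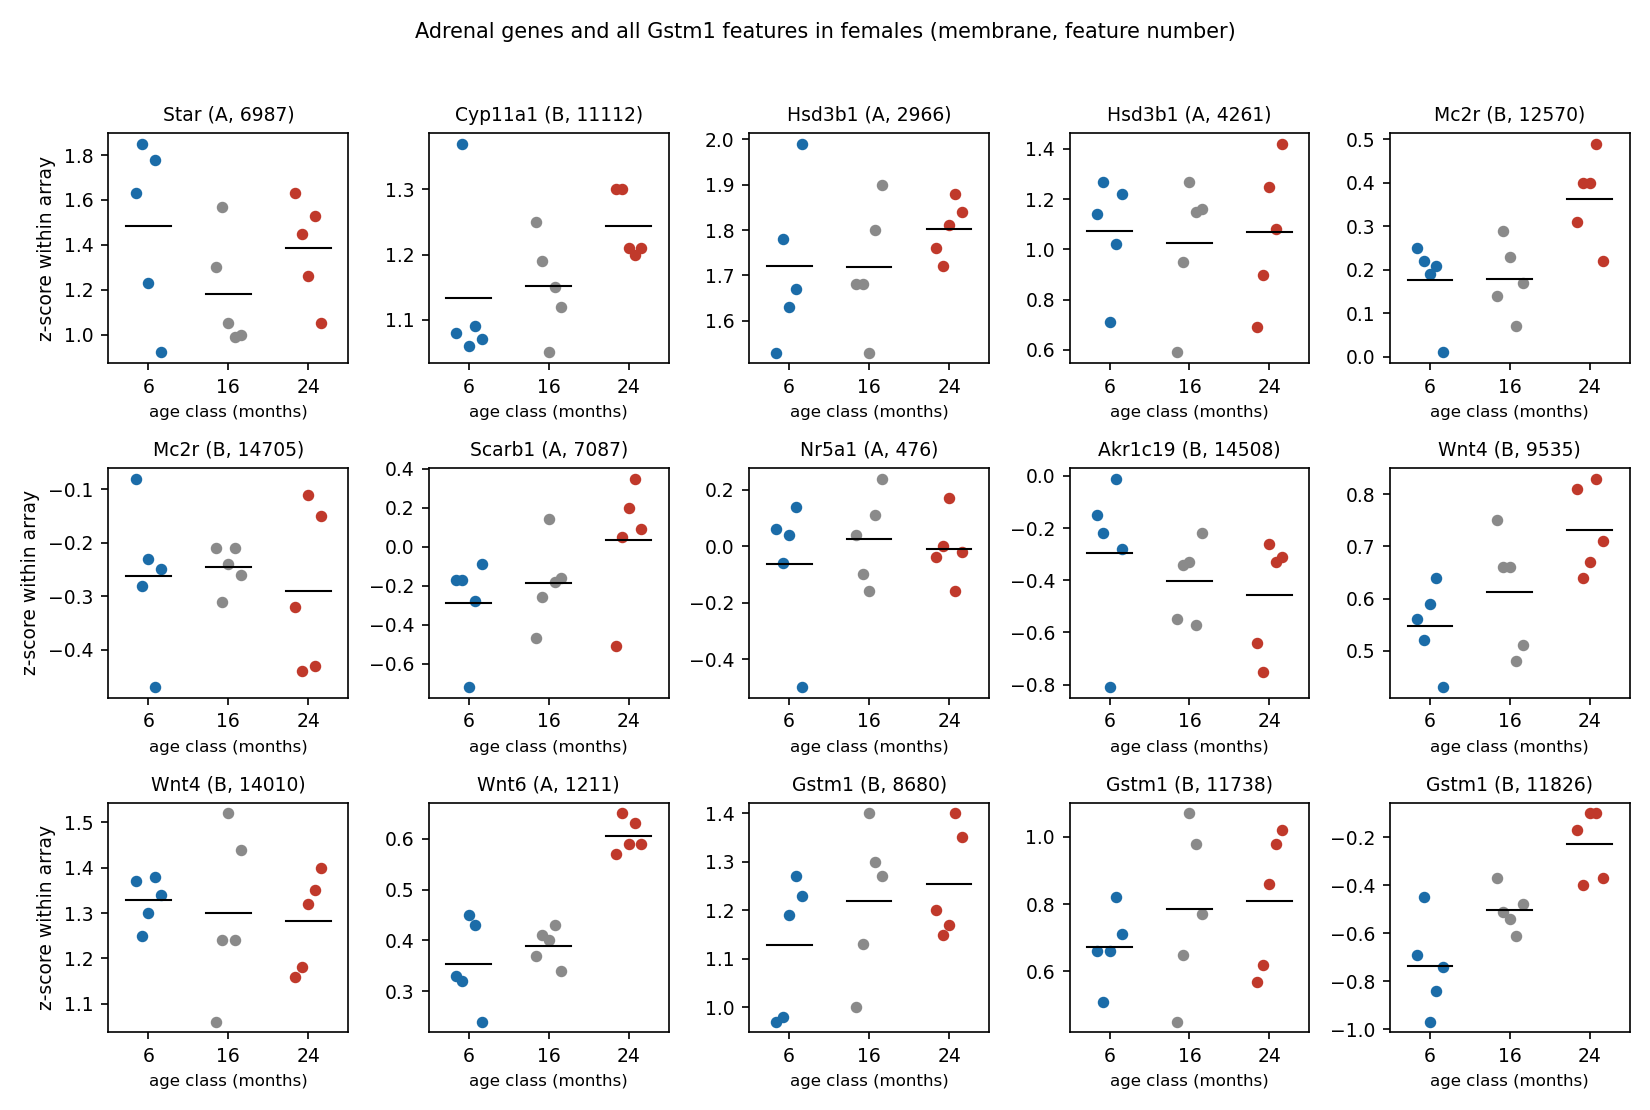
Z-scores (vertical axis) of single females at 6, 16 and 24 months (5 points each, horizontal axis; line: mean) for genes of steroid production, ACTH response, cholesterol uptake, X-zone and capsule, and for all 3 Gstm1 features, with membrane and feature number in each title. The old mice lie above all the young mice at Wnt6 and at Gstm1 feature 11826, and the ages overlap at every Star, Cyp11a1, Hsd3b1, Mc2r, Scarb1, Nr5a1, Akr1c19 and Wnt4 feature.

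Among genes of the capsule, the Wnt and Hedgehog pathways and the cell cycle, none passed. At an unadjusted p under 0.05, 1 of 20 and 1 of 47 members were higher, beside 2.13% of all features. Of 20 capsule, Wnt and Hedgehog genes, 13 were higher and 7 lower (median 0.040), and after subtraction 11 were higher (median 0.0064). Wnt6, a secreted Wnt ligand, stood at 0.33, 0.32, 0.45, 0.43 and 0.24 at 6 months and at 0.57, 0.65, 0.59, 0.63 and 0.59 at 24 months. The groups did not overlap, and the difference was 0.25 (SE 0.0696, adjusted p = 0.987 in limma). Its neighbours differed by 0.15, and 0.092 (SE 0.057) remained after subtraction, with overlapping groups. Males showed 0.23 (SE 0.0696) at the same feature. Wnt4, the Wnt ligand of the outer cortex, differed by 0.18 (SE 0.0649) at 1 feature and -0.046 (SE 0.0944) at the other, and Ctnnb1, which encodes beta-catenin, by 0.14 (SE 0.181). Of 47 cell cycle genes, 30 were higher and 17 lower (median 0.048), and 25 were higher after subtraction (median 0.0075). Over all named genes 50.4% were higher. Tpx2, a spindle assembly factor, differed by 0.21 (SE 0.0900), Mcm5, part of the replicative helicase, by 0.31 (SE 0.154) and the proliferation marker Mki67 by 0.074 (SE 0.121). The features of Cyp11a1, Srebf1 and Tpx2, numbered 11112, 11114 and 11136, lie within 1 row and 2 columns of one another.

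The 10 named features with the smallest p in the higher direction are described next, by what their genes do. All 10 had an adjusted p of 0.987 in limma, 9 of 10 did not overlap between the groups (0.882% of all features did so in this direction), and the 16-month mean lay between the other means in 10 of 10. Their neighbours shared the direction in 10 of 10, by more than 0.1 in 8. The median difference was 0.40 as deposited and 0.23 after subtraction, when 5 of 10 still did not overlap (1.03% of all features). These features were picked by their p, so these counts describe them and support nothing.

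In redox and mitochondrial metabolism, 3 of these genes handle glutathione or NADP, and none of the 3 passed. Gstm1, a glutathione S-transferase that conjugates glutathione to electrophiles, stood at -0.69, -0.45, -0.97, -0.84 and -0.74 at 6 months on feature 11826. At 24 months it stood at -0.17, -0.40, -0.10, -0.10 and -0.37, and at 16 months at -0.37, -0.51, -0.54, -0.61 and -0.48. Each old mouse lay above each young mouse, by a mean of 0.51 (SE 0.120). The neighbours' median was 0.007, and 0.48 (SE 0.118) remained after subtraction, still without overlap. The other 2 Gstm1 features differed by 0.13 (SE 0.102) and 0.14 (SE 0.136), with overlapping groups. Mu-class genes are close copies, and which transcripts each feature captured is not given in the sources used here. Slc25a39, a mitochondrial carrier that imports glutathione, stood at -0.02, 0.13, 0.18, 0.00 and 0.04 at 6 months and at 0.46, 0.38, 0.57, 0.66 and 0.29 at 24 months. It did not overlap, and the difference was 0.41 (SE 0.103), 0.31 (SE 0.0905) after subtraction and 0.36 without the near-identical arrays. Its feature, number 3281, lies in the same row as those of Dusp9 (3279), Dlst (3280) and Ezr (3282). Each of them was also higher at 24 months. Nadk2, the mitochondrial NAD kinase, had the largest difference of all features, 2.10 (SE 0.557), or 1.91 (SE 0.540) after subtraction, at a dim feature. It stood at -2.41, -2.97, -5.96, -2.23 and -3.96 at 6 months and at -2.30, -0.36, -1.64, -1.47 and -1.25 at 24 months. The 194-day and 180-day mice lay far below the rest, the 716-day mouse fell within the young range, and the SD was 1.53 at 6 months and 0.703 at 24 months. Males differed by -0.82 (SE 0.557) there. Across the 31 genes of the antioxidant and glutathione list, 15 were higher and 16 lower (median -0.004). Sod1 differed by -0.016 (SE 0.0976) and Sod2 by -0.014 (SE 0.0759) and 0.010 (SE 0.085). Nfe2l2, the regulator of this response, differed by -0.22 (SE 0.115).

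In cell structure and traffic, Lad1 had the smallest p of all features. Lad1, ladinin 1, a filament-anchoring protein of basement membranes, stood at -0.39, -0.39, -0.44, -0.33 and -0.53 at 6 months. At 24 months it stood at 0.06, -0.01, 0.16, -0.06 and 0.08, and at 16 months at -0.39, -0.26, -0.23, -0.36 and -0.31. The old mice lay clear of both younger groups, with a difference of 0.46 (SE 0.105, unadjusted p = 9.43e-05, adjusted p = 0.987 in limma). It was 0.49 (SE 0.104) without the near-identical arrays. The males spread more at this feature (SD 0.283 at 6 months and 0.23 at 24 months, against 0.0747 and 0.0847 in females). What part this had in the fits that follow was not tested. With only the 10 females of 6 and 24 months in the fit, 0 features passed (smallest adjusted p = 0.145 in limma). With the 20 females of the series alone in the fit, juveniles included, Lad1 was the single feature to pass (SE 0.0623, adjusted p = 0.00605 in limma). With neighbours subtracted as well, it did not pass there (smallest adjusted p of all features 0.109). Its neighbours differed by 0.16, and 0.28 (SE 0.0857) remained after subtraction, with overlapping groups. The second Lad1 feature differed by -0.12 (SE 0.0991), in the other direction. Ehd1, which returns receptors from endosomes to the surface, stood at -0.12, -0.06, -0.32, -0.16 and -0.14 at 6 months and at 0.08, 0.11, 0.19, 0.59 and 0.19 at 24 months. The groups did not overlap, the 733-day mouse stood highest, and the difference was 0.39 (SE 0.107), 0.30 (SE 0.076) without the near-identical arrays and 0.23 (SE 0.0748) after subtraction.

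In RNA processing and the nucleus, Prpf19, a ubiquitin ligase of the spliceosome, stood at 0.97, 0.99, 0.82, 1.01 and 0.96 at 6 months and at 1.26, 1.23, 1.34, 1.63 and 1.30 at 24 months. The 733-day mouse again stood highest, and the difference was 0.40 (SE 0.110), 0.33 without the near-identical arrays and 0.23 after subtraction. The features of Lad1, Ehd1 and Prpf19 are numbers 2333, 2355 and 2335, within 1 row and 2 columns of one another in the numbering. Srsf11, an SR splicing factor, stood at 0.28, 0.27, 0.24, 0.40 and 0.22 at 6 months and at 0.46, 0.56, 0.55, 0.67 and 0.67 at 24 months, a difference of 0.30 (SE 0.0751), or 0.19 (SE 0.0579) after subtraction. Its other 2 features differed by -0.054 and -0.16. Scmh1, a Polycomb protein, ranged from 1.10 to 1.27 at 6 months and from 1.41 to 1.56 at 24 months, a difference of 0.30 (SE 0.0726), 0.19 (SE 0.0597) after subtraction, against -0.068 at its second feature. Pttg1, securin, which holds back separase until anaphase, ranged from -0.25 to 0.04 at 6 months and from 0.06 to 0.42 at 24 months. Its difference was 0.28 (SE 0.0784), 0.15 after subtraction, and its other features gave -0.066 and 0.016. The splicing list as a whole held 41 genes, with 19 higher and 21 lower (median -0.008). Srsf3, another SR factor, ranged from -0.88 to -0.48 at 6 months and from -0.47 to -0.17 at 24 months (difference 0.35, SE 0.145).

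**Figure D3:**
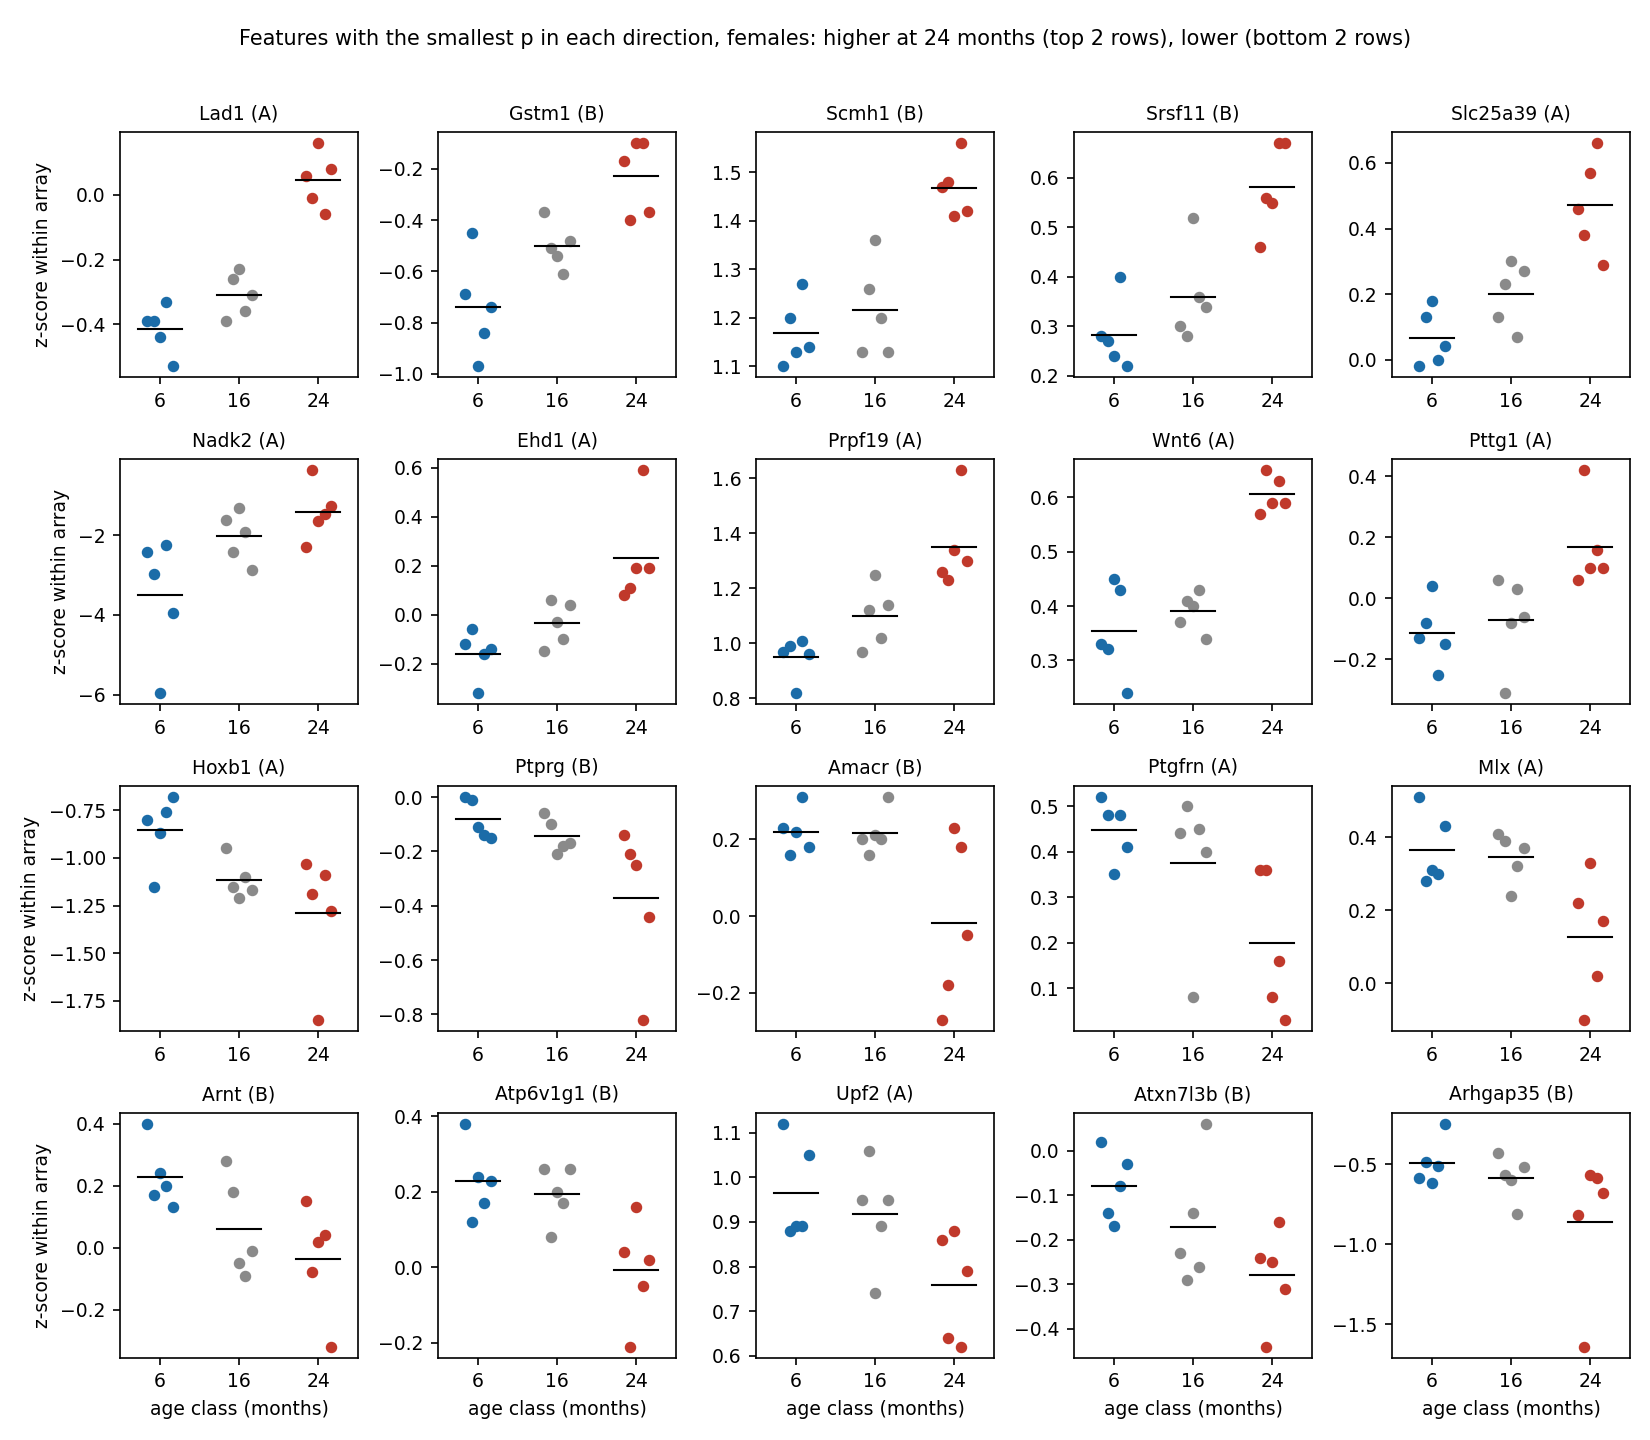
Z-scores (vertical axis) of single females at 6, 16 and 24 months (5 points each, horizontal axis; line: mean) for the 10 named features with the smallest p in each direction; the letter is the membrane. In 9 of 10 higher features the old mice lie above all the young mice, and in 0 of 10 lower features do they lie below all of them.

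The 10 named features with the smallest p in the lower direction were less cleanly parted. The groups overlapped in 10 of 10 (0.284% of all features were parted downward), the sizes ran from 0.20 to 0.44, and the median was -0.24 as deposited and -0.14 after subtraction, when 1 of 10 did not overlap (0.278% of all features). Hoxb1, a homeobox gene of hindbrain patterning, stood at -0.80, -1.15, -0.87, -0.76 and -0.68 at 6 months and at -1.03, -1.19, -1.85, -1.09 and -1.28 at 24 months. The 193-day mouse lay inside the old range, and the difference was -0.44 (SE 0.120, adjusted p = 0.987 in limma), or -0.40 (SE 0.123) after subtraction. Atp6v1g1, a subunit of the proton pump that acidifies lysosomes and granules, stood at 0.38, 0.12, 0.24, 0.17 and 0.23 at 6 months and at 0.04, -0.21, 0.16, -0.05 and 0.02 at 24 months. Only the 712-day mouse reached the young range, and the difference of -0.24 (SE 0.0759) became -0.20 (SE 0.0511) with neighbours subtracted, where the groups no longer overlapped. Arnt, the partner of the hypoxia and aryl hydrocarbon receptors, stood at 0.40, 0.17, 0.24, 0.20 and 0.13 at 6 months and at 0.15, -0.08, 0.02, 0.04 and -0.32 at 24 months. Its difference was -0.27 (SE 0.0845), or -0.16 (SE 0.057) after subtraction, and that of its second feature -0.090 (SE 0.0859).

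In metabolism and signalling, Amacr, a racemase of branched-chain fatty acid and bile acid oxidation, stood at 0.16 to 0.31 in the young mice and at -0.27, -0.18, 0.23, 0.18 and -0.05 in the old. 2 old mice lay inside the young range and 3 below it, so the difference of -0.24 (SE 0.0714) came with an SD of 0.219 at 24 months against 0.0579 at 6 months, and was -0.13 after subtraction. Mlx, a glucose-responsive partner factor, differed by -0.24 (SE 0.0748), -0.12 after subtraction, and by 0.022 at its second feature. Ptprg, a receptor phosphatase, differed by -0.29 (SE 0.0865), -0.19 after subtraction, with the 733-day mouse at -0.82 and the other old mice between -0.44 and -0.14. Its second feature had a median of 0.02 at 6 months and -0.10 at 24 months, with overlapping groups. Arhgap35, a GTPase-activating protein, differed by -0.37 (SE 0.122), -0.31 after subtraction, with the 714-day mouse at -1.64 and the others between -0.82 and -0.57. The differences of Ptgfrn, a tetraspanin-associated membrane protein, and Upf2, of nonsense-mediated decay, were -0.25 and -0.21. They became -0.087 (SE 0.0483) and -0.047 (SE 0.050) after subtraction, beside neighbours at -0.15 and -0.14. Upf2 features 5737 and 13007 had medians of -1.60 and -0.07 at 6 months and of -1.88 and -0.20 at 24 months, with overlapping groups. Atxn7l3b differed by -0.20 (SE 0.0663), -0.13 after subtraction, at this feature and by 0.18 and 0.06 at its others.

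**Figure D4:**
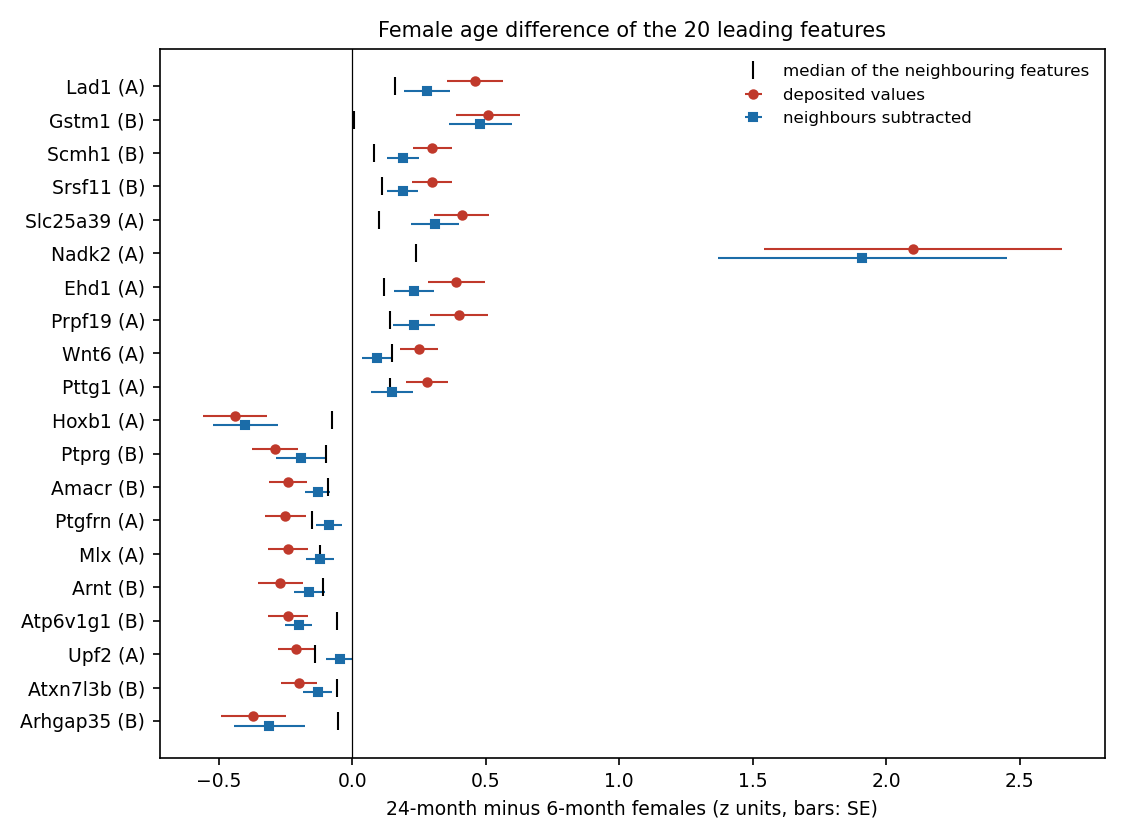
Difference between 24- and 6-month females (horizontal axis, z units; bars: SE) of the 20 leading features, as deposited (red) and with neighbours subtracted (blue), with the neighbours' median difference as a black tick. The median of the 10 higher features moves from 0.40 to 0.23 and that of the 10 lower ones from -0.24 to -0.14, while Gstm1 stays at 0.48.

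Among immune, matrix and other cell type markers, no single gene passed. Of 12 macrophage genes 6 were higher and 6 lower (median -0.013), and the mean of the list in single mice ran from 0.049 to 0.10 at 6 months and from 0.039 to 0.12 at 24 months. Fcgr1, the high-affinity IgG receptor, ranged from 1.15 to 1.32 and from 1.30 to 1.51 (difference 0.20, SE 0.0636), while Cybb, the phagocyte oxidase, differed by -0.21 (SE 0.0767) and by -0.042 after subtraction. Cd68 and Lyzs had no named feature. Of 4 T and B cell genes 3 were higher. Cxcr4, the receptor for Cxcl12, ranged from 0.45 to 0.75 at 6 months and from 0.89 to 1.22 at 24 months, a difference of 0.41 (SE 0.137) with no overlap, and males gave 0.31 there. Ighm, the heavy chain of B cells, differed by 0.13 (SE 0.105). Of 6 antigen presentation genes 4 were higher (median 0.057, and -0.0026 after subtraction), with Cd74 at 0.074 (SE 0.104). Of 12 interferon response genes 3 were higher and 9 lower (median -0.053), and the mean of the list ran from 0.045 to 0.14 at 6 months and from -0.27 to 0.081 at 24 months. The lowest value came with the dim feature of Rsad2, an antiviral gene, which stood at -5.18 in the 704-day mouse and between -2.90 and -2.61 in the other old mice. Irf3, which switches on interferon genes, differed by -0.25 (SE 0.106), and Stat2 by -0.12 (SE 0.0679). The 7 cytokine and complement genes had a median of -0.010, with Cxcl1 at -0.22 (SE 0.101) and Tgfb2 at -0.34 (SE 0.181).

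Of 37 extracellular matrix genes, 22 were higher and 15 lower (median 0.028). Bmp1, which trims the C-terminal ends of procollagens, stood at 0.46, 0.54, 0.45, 0.32 and 0.28 at 6 months and at 0.84, 0.80, 0.83, 0.91 and 0.68 at 24 months on feature 13295. The groups did not overlap, the neighbours' median was 0.011, and the difference of 0.40 (SE 0.115, adjusted p = 0.987 in limma) stayed at 0.36 (SE 0.105) after subtraction. At 16 months it stood at 0.36, 0.62, 0.72, 0.34 and 0.30, with 0.62 and 0.72 above all the young mice and the rest within their range. Males gave a difference of 0.26. The membrane A feature of Bmp1 differed by 0.070 (SE 0.0992). Among the collagens, Col1a1 differed by 0.054 (95% interval -0.11 to 0.21), and the 4 Col3a1 features by 0.20 (SE 0.119), 0.11, -0.024 and 0.010. Col6a2 differed by -0.19 (SE 0.0807), and the 4 Sparc features by 0.090, -0.044, 0.086 and 0.008.

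Among the remaining cell types, 9 chromaffin genes had a median of 0.018 with 6 higher, and of -0.045 with 3 higher after subtraction. Gata3 differed by 0.10 (SE 0.0659), 0.041 after subtraction, and Gata2 by 0.10 (SE 0.0982), -0.045 after subtraction. Th, the rate-limiting enzyme of catecholamine synthesis, differed by 0.018 (95% interval -0.16 to 0.20). The mean of that list in single mice ran from 0.44 to 0.56 at 6 months and from 0.42 to 0.57 at 24 months. Of the 5 endothelial genes 2 were higher and 3 lower, with a median of -0.024 (0.035 after subtraction, -0.060 without the near-identical arrays). The higher ones were Cdh5 at 0.39 (SE 0.291) and Nos3 at 0.56 (SE 0.431), both dim. The lower ones were Pecam1 at -0.26 (SE 0.201), Esam at -0.052 (SE 0.114) and Emcn at -0.024 (SE 0.0754). Both Schwann cell genes were lower, by 0.052 and 0.060 in size. Of 5 erythroid genes 4 were higher (median 0.10), with Slc4a1 at 0.22 (SE 0.143) and Alas2 at 0.17 (SE 0.129). The means of the erythroid list ran from 0.26 to 0.40 at 6 months and from 0.36 to 0.59 at 24 months. All 3 adipocyte genes measured were lower (median -0.094), with Lpl at -0.094 (SE 0.0775) and Slc2a4 at -0.11 (SE 0.0902). Their means ran from 0.040 to 0.097 at 6 months and from -0.24 to 0.070 at 24 months, the lowest being that of the 733-day mouse. Without that mouse the Slc2a4 difference was -0.016. The part of cell composition in any single gene's difference was not tested.

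In energy metabolism, oxidative phosphorylation held 61 genes, 39 higher and 21 lower (median 0.030), and none passed. At an unadjusted p under 0.05, 4 of the 61 were higher (2.13% of all features) and 3 lower (2.37%). Atp5c1, the gamma subunit of ATP synthase, ranged from 0.00 to 0.13 at 6 months and from 0.22 to 0.41 at 24 months, a difference of 0.25 (SE 0.0834) with no overlap. Ndufb7, of complex I, differed by 0.20 (SE 0.0786) and by 0.091 after subtraction. Of 49 mitochondrial ribosome genes, 28 were higher and 19 lower (median 0.022), with Mrpl15 at 0.46 (SE 0.196) and Mrps11 at 0.20 (SE 0.0853). The 21 citrate cycle and pyruvate genes had a median of -0.020 (0.020 after subtraction). Dlst, whose feature is next to that of Slc25a39 in the numbering, differed by 0.10 (SE 0.0542) and Pdhb by 0.13 (SE 0.0686). No such list had a median beyond 0.03 in size.

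Among genes of protein synthesis and turnover, none passed. The 64 cytosolic ribosome genes had a median of 0.006 (33 higher, 31 lower), within a range of -0.22 to 0.15, with Rps15a at -0.22 (SE 0.156) and Rpl32 at -0.14 (SE 0.0878). Rps15a and Rpl32 gave -0.091 and 0.038 after subtraction. Of 38 proteasome genes 19 were higher and 19 lower. Psmc3 and Psmc2, ATPases of its base, differed by 0.33 (SE 0.123) and 0.35 (SE 0.158), with no overlap for Psmc3 alone. The 48 translation factors had a median of 0.019, with Eif3c at 0.23 (SE 0.0760) and no overlap, and Eif4g3 at 0.22 (SE 0.104). The 63 chaperones had a median of 0.004, with Hspd1 at -0.17 (SE 0.0724) and Dnajc7 at -0.17 (SE 0.0862). Of 34 lysosome and autophagy genes 23 were higher and 11 lower (median 0.042, with 22 higher and the same median after subtraction, and 0.028 without the near-identical arrays). Ctsz differed by 0.15 (SE 0.0883), 0.0055 after subtraction, and Uvrag by -0.18 (SE 0.0910), -0.10 after subtraction.

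Among genes tied to senescence, stress and timing, none passed. Of 27 senescence and DNA damage genes 12 were higher and 14 lower (median -0.006). Hmgb2, a chromatin protein, ranged from -0.67 to -0.47 at 6 months and from -0.46 to -0.32 at 24 months (difference 0.17, SE 0.0877), and Sirt1, a deacetylase, differed by -0.16 (SE 0.0880). Cdkn1a and Cdkn2a had no named feature. Of 13 immediate early genes 5 were higher and 8 lower (median -0.044), and after subtraction 8 were higher (median 0.028). Klf4 differed by 0.31 (SE 0.205), 0.21 after subtraction, and Myc by -0.11 (SE 0.0758), 0.042 after subtraction. The 10 circadian genes had a median of 0.019 (-0.022 after subtraction). Csnk1e differed by 0.10 (SE 0.101), 0.0054 after subtraction, and Npas2 by 0.084 (SE 0.0843), 0.074 after subtraction. The 18 insulin, IGF and mTOR genes had a median of 0.028 (-0.0067 after subtraction). Igf1 differed by -0.12 (SE 0.0712), -0.11 after subtraction, and Foxo3 by -0.12 (SE 0.0691), -0.00055 after subtraction. Of 7 sex-linked genes 6 were higher (median 0.040), and after subtraction 4 were (median 0.001). As deposited, Ddx3x differed by 0.18 (SE 0.122), Eif2s3x by 0.13 (SE 0.118) and Xist by 0.018 (SE 0.239). After subtraction Ddx3x stood at -0.018, Eif2s3x at 0.092 and Xist at 0.057. The list includes the Y-chromosome genes Uty (0.056, SE 0.221) and Eif2s3y (-0.012, SE 0.110), whose transcripts females lack. At 24 months Xist ran from -1.39 to -0.81 in females and from -1.97 to -1.19 in males, so its feature did not part the sexes. Trnt1, which adds CCA ends to transfer RNAs, differed by 0.24 (SE 0.0942) in females, with overlapping groups, and by 0.33 in males.

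**Figure D5:**
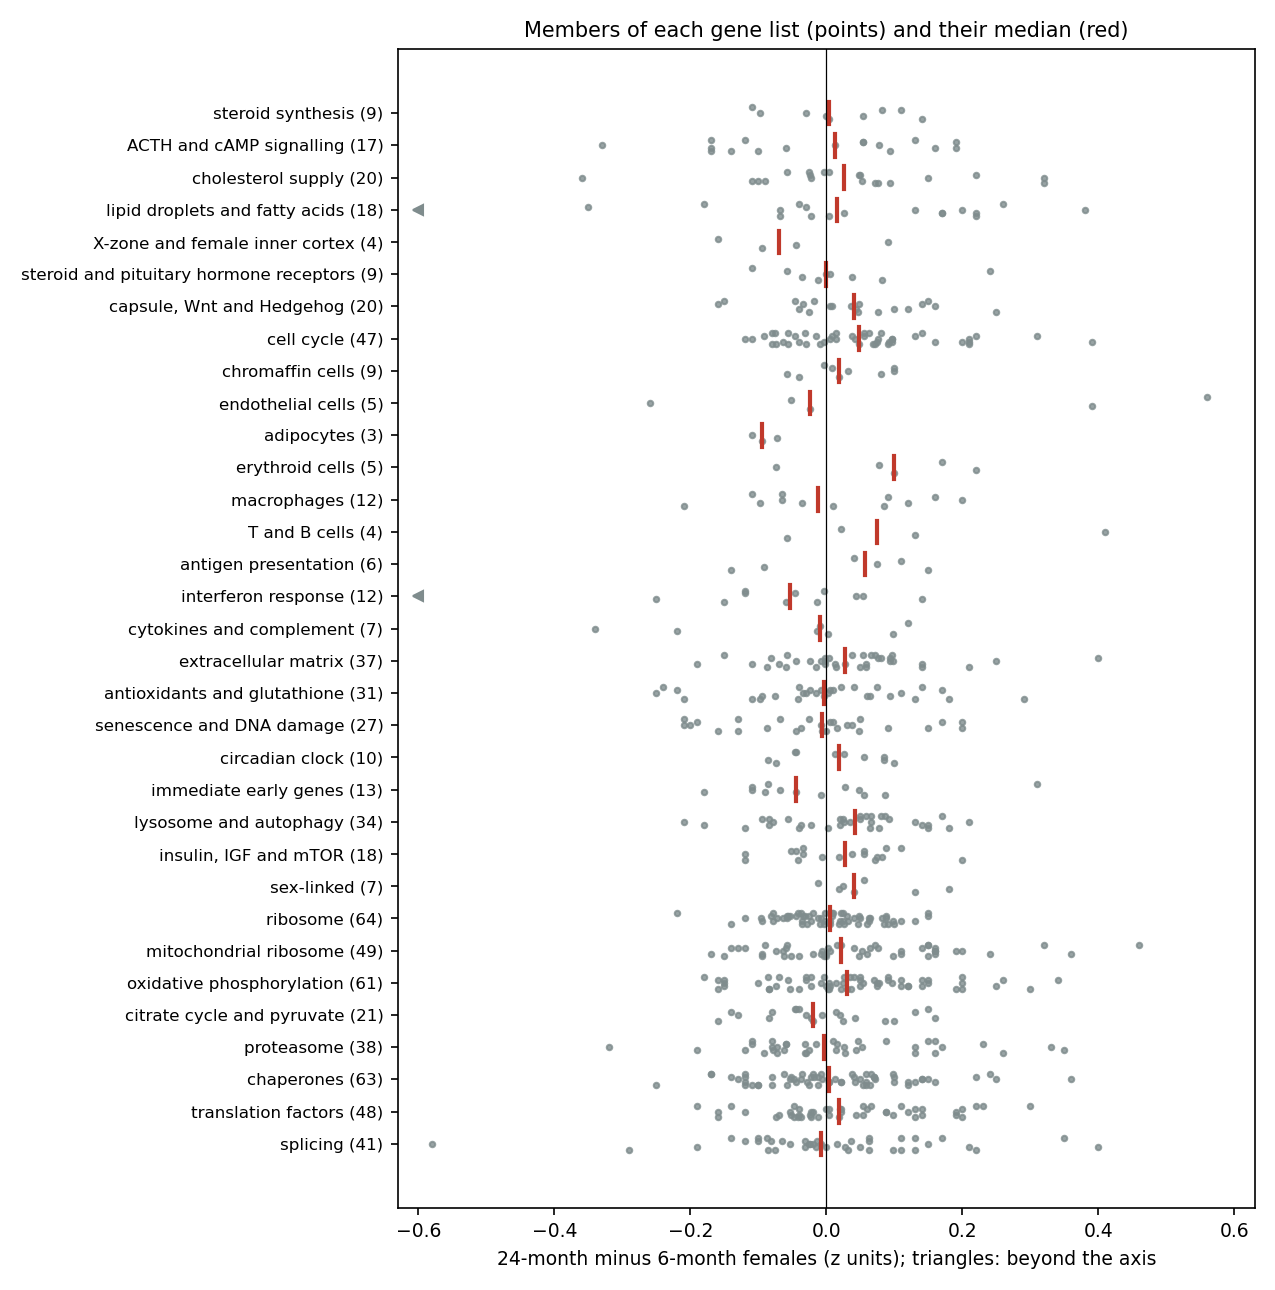
Difference between 24- and 6-month females (horizontal axis, z units) of each measured member (points) of the gene lists with at least 3 members, with the list median in red and the number of genes in brackets. Medians lie between -0.094 (adipocytes) and 0.10 (erythroid cells), beside 0.002 for all named genes, and members lie on both sides of 0 in every list shown but the adipocytes; 2 members lie beyond the axis (triangles).

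The 16-month females were used to ask whether differences followed age in days over the 15 adult females. None of the 16896 features had a slope past an adjusted p of 0.05 in limma (0% called, smallest 0.177), and 1012 had an unadjusted p under 0.05 (5.99%), 544 rising (3.22%) and 468 falling (2.77%). Lad1 had a slope of 0.0835 z units per 100 days (SE 0.0142) and Gstm1 of 0.0960 (SE 0.0166), both with an adjusted p of 0.177 in limma. Without the 193-day mouse, Gstm1 alone passed, at 0.11 per 100 days (SE 0.015, adjusted p = 0.0276 in limma). Slc25a39 followed with 0.0755 (SE 0.0147, adjusted p = 0.246 in limma). Ezr, ezrin, which ties actin to the membrane, stood at -0.28, -0.37, -0.24, -0.25 and -0.42 at 6 months, at -0.07, -0.16, -0.20, -0.26 and -0.21 at 16 months and at -0.02, -0.04, -0.09, 0.12 and 0.03 at 24 months. Its group means were -0.31, -0.18 and 0, with a slope of 0.0584 (SE 0.0111). Tor1aip2, an activator of torsin in the endoplasmic reticulum, had a slope of 0.0586 (SE 0.0112). Ezr and Tor1aip2 are features 10175 and 10219, in the same column and 2 rows apart, and after subtraction their slopes were 0.0333 and 0.0328. The other features of Ezr differed by 0.25 (SE 0.249) and 0.032 (SE 0.159) between 6 and 24 months. Those of Tor1aip2 had medians of -1.02 and -0.45 at 6 months and of -0.96 and -0.43 at 24 months. The slope and the 2-group difference share the same 10 mice, so they are not separate evidence.

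The last comparison asked whether the female difference differed from the male one, as a contrast of both in 1 model. None of the 16896 features passed in limma (0% called, smallest adjusted p = 0.398), and 810 had an unadjusted p under 0.05 (4.79%). In males alone, 0 passed and 1242 stood apart at an unadjusted p under 0.05 (7.35%). Nat10, which acetylates cytidine in RNA, stood at -1.11, -1.14, -1.32, -1.21 and -1.33 in 6-month females and at -0.77, -0.90, -0.77, -0.81 and -0.19 in 24-month females. In males it stood at -0.87, -0.57, -1.23, -1.10 and -0.48 at 6 months and at -1.24, -1.17, -1.60, -1.28 and -1.58 at 24 months. The female values were all higher in the old mice and the male values mostly lower, by 0.53 (SE 0.155) and -0.52 (SE 0.155), and the difference between them was 1.06 (SE 0.219, adjusted p = 0.398 in limma).

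Gstm1 on feature 11826 ran the same way: its males stood at -0.35, -0.54, -0.85, -0.42 and -0.58 at 6 months and at -0.74, -0.84, -0.50, -0.82 and -1.22 at 24 months. They differed by -0.28 (SE 0.120), and the female minus male difference was 0.79 (SE 0.170, adjusted p = 0.398 in limma), or 0.70 after neighbour subtraction. At its other features this value was -0.046 (SE 0.144) and 0.066 (SE 0.192). P2rx4, an ATP-gated ion channel, differed by -0.12 (SE 0.0647) in females and 0.23 in males, a difference of -0.35 (SE 0.0915) that became -0.087 after subtraction. Msantd4 differed by -0.45 in females and 0.53 in males (-0.97, SE 0.257), and Dusp9, a phosphatase of MAP kinases, by 0.26 and -0.27 (0.52, SE 0.140). For these last 3 the adjusted p was 0.992 in limma. The Dusp9 feature, number 3279, lies in the same row as that of Slc25a39, 2 columns apart. At its second feature, 15550, Dusp9 had a median of 0.04 in 6-month females and 0 in 24-month females. Of the 10 leading higher features, 7 had the same sign in males, and of the 10 lower ones 6 did. The matching share over all features is not given here, so these counts describe the picked features only.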

How the data were processed

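Adrenal RNA of each mouse was hybridised to 2 membranes per the labels' protocols, and the deposited values are z-scores (a score within each array, mean 0 and SD 1). Background correction, the scale before the z-transform, the genome build and the scanner software were left unstated (not given in the sources used here). Values were used unchanged, with no filter, in limma 3.58.1 (R 4.3.3): lmFit and eBayes over 8 sex and age groups of all 40 mice, per membrane, with p-values of both membranes adjusted together by Benjamini-Hochberg and a threshold of 0.05. Slopes used the 15 adult females. Gene names came from the platform annotation, and 9641 of the features with 1 symbol matched the RefSeq table of assembly GRCm38.p6. A gene in a list was represented by its feature with the highest mean level. Scripts were tested on simulated data. Replicates are separate mice, hybridised separately apart from the near-identical membrane A arrays of 1 female and 1 male, so p-values measure both kinds of spread, and the number of arrays limits precision.

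Named were the 10 features with 1 symbol and the smallest p in each direction, since fewer than 5 passed, the 5 with the smallest p of each other comparison, up to 4 members of each list, and a fixed set of adrenal genes. Members, genes and lists were chosen with earlier results of these data known. Alternatives covered the mice and arrays kept, blocks, weights, moderation, dim features, quantile normalization, covariates, the adjustment and neighbour subtraction.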

Additional observations from a re-analysis of the deposited data

Results flagged for a closer look

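In 18 of 286 groups of 5 females (143 named features, both ages), 1 mouse stood apart from the other 4 by more than 0.71 of the group's range. Chance flags about 1 in 20 groups. At 24 months the 733-day mouse stood apart on membrane A at Ehd1 (0.59, others 0.08 to 0.19), Prpf19 (1.63, others 1.23 to 1.34) and Eif2s3x (-0.33, others -0.80 to -0.71), and on membrane B at Alas2 (-0.65, others -1.34 to -1.23) and Slc2a4 (-0.12, others 0.30 to 0.40). The 714-day mouse stood apart at Pttg1 (0.42, others 0.06 to 0.16) and Arhgap35 (-1.64, others -0.82 to -0.57). The 704-day mouse did so at Nat10 (-0.19, others -0.90 to -0.77) and Hmgb2 (-0.32, others -0.46 to -0.42).

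At 6 months the 194-day mouse stood apart at Prpf19 (0.82, others 0.96 to 1.01), Rpl32 (-0.15, others 0.07 to 0.12) and Sod1 (-0.79, others -0.39 to -0.23). The 193-day mouse did so at Cyp11a1 (1.37, others 1.06 to 1.09) and at the second Lad1 feature (0.03, others 0.13 to 0.16). The 180-day mouse stood apart at Mc2r (0.01, others 0.19 to 0.25), at the second Arnt feature (1.21, others 0.77 to 0.88) and at Mki67 (-0.87, others -0.45 to -0.29). The 186-day mouse stood apart at Srebf1 (0.13, others 0.28 to 0.33).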

How the results depend on the processing

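Over 27 settings, 22 planned and 5 added after seeing the data, the count of features past the threshold was 0 in each comparison a setting was run for, with 2 exceptions. Fits of the females alone were run for the 24- minus 6-month difference only. It was 1 (Lad1, adjusted p = 0.00605 in limma) for the 24- minus 6-month difference with only the 20 females fitted. It ranged from 0 to 1 for the slope when each mouse was left out, with 1 feature (Gstm1, adjusted p = 0.0276 in limma) without the 193-day mouse. Leaving out each mouse gave 0 to 0 for the difference and for the female minus male difference. With the run of title numbers as a replicate block the count was 0 (smallest adjusted p = 0.541 in limma, 405 features higher and 491 lower at an unadjusted p under 0.05), and 0 (0.164) without the near-identical arrays as well. Deviations of mice in the same run correlated from -0.03 to 0.254 on membrane A and from -0.0673 to 0.232 on B, highest in run 5 on each. Whether the run itself moved the values was not tested.

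At an unadjusted p under 0.05, array weights gave 586 features higher and 776 lower, fitting only the 20 females 689 and 636, and leaving out the near-identical arrays 313 and 282, beside 360 and 400. With array similarity as a covariate the slope gave 313 rising and 152 falling, beside 544 and 468. All 20 leading features kept their sign in every setting that held them, as did 83 of 123 other named features and 11 of 33 lists. Lad1 ranged from 0.28 to 0.50, Gstm1 from 0.45 to 0.58 and Wnt6 from 0.06 to 0.28. Leaving out dim features removed 25 named features, Nadk2, Hoxb1 and Nat10 among them. Signal over background cannot be read from z-scores.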
